A study of Mus musculus with 7 samples.

Results

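White and brown adipocyte genes were followed through whole hearts of 7 mdx mice. The set was 10 genes of fat cells that had been selected on their measured values, because they varied strongly from one heart to the next: Adipoq, Cfd, Lipe, Pck1, Plin1, Car3, Ucp1, Retn, Fabp4 and Cidec. Members were all probe sets whose only gene in the platform annotation was 1 of these genes. Of the 10 genes, 8 had such a probe set, 17 probe sets in all, out of 45037 probe sets and 18193 genes on the array. Cfd, which encodes the adipsin protease, and Plin1, which encodes perilipin of the lipid droplet, matched no probe set and were not analysed here. The spread between hearts, and the group difference that is part of it, therefore chose the genes and is given below as a description of these hearts.

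All 7 mice were males on an mdx background, which lacks dystrophin and models Duchenne muscular dystrophy, and were 7 months old. In 4 of them (mdx HRTΔIKKβ), Cre recombinase driven by the cardiomyocyte promoter Myh6 had deleted IKKβ, the kinase that switches on NF-κB. The other 3 (mdx IKKβf/f) were littermates that carried the floxed gene, with no Cre listed. The Cre acts in cardiomyocytes alone, so fat cells, vessels and leukocytes of both groups should carry an intact kinase. RNA came from the whole heart, 1 heart per array, and the deposited values are log2 RMA values (background-corrected, quantile-normalized summaries of each probe set), so a difference of 1 is a doubling. Differences subtract the mdx IKKβf/f mean from the mdx HRTΔIKKβ mean, their standard errors (SE) come from a limma fit to every probe set on the array, and p-values were adjusted over all of these by the Benjamini-Hochberg method. Array medians lay between 6.73 and 6.75. The brightest probe set of Ikbkb, the deleted gene, was read at 8.44, 8.86, 8.75 and 8.82 in mdx HRTΔIKKβ hearts, against 8.82, 9.03 and 8.86 in mdx IKKβf/f hearts. The groups overlapped. The second mdx HRTΔIKKβ heart, which stands out below, lay above the first mdx IKKβf/f heart and level with the third (8.864 against 8.861). Ikbkb averaged 8.72 ± 0.19 in mdx HRTΔIKKβ hearts and 8.90 ± 0.11 in mdx IKKβf/f hearts (SD, n = 4 and 3, adjusted p = 0.801 in limma), in RNA that also comes from cells without Cre. By qPCR of whole hearts, the study reported reduced Ikbkb in its mdx HRTΔIKKβ mice. Myh6, the cardiomyocyte myosin, averaged 14.84 in both groups.

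Fat cells store triglyceride in a single large droplet in white fat and in many small droplets in brown fat. White fat cells release adiponectin and other adipokines and, when hormones call for it, break triglyceride down to fatty acids. Brown fat cells burn fatty acids for heat through uncoupling protein 1 in their mitochondria. In and around the mouse heart, fat cells lie mainly at the base of the great vessels and in mediastinal and epicardial depots, while heart muscle itself burns fatty acids and shares many lipid genes with fat.

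PPARγ and the C/EBP factors drive the fat cell programme, so the promoters of the members were read for the letters these factors bind. RefSeq windows of 300 bases (GRCm38.p6, 250 before and 50 after each start site) were at hand for 10 start sites of 8 of the genes, with none for Car3 or Fabp4. The 250 bases before the start are shown for 3 genes. Ucp1 and Adipoq are the brown and the white gene with the widest range between hearts, and Cidec is the measured gene with a C/EBP match. Capitals mark AGGTCA, the half-site of nuclear receptors, in Ucp1 and TTGCNNAA, a C/EBP element, in Cidec.
Ucp1 (chr8:83290098-83290347, plus strand): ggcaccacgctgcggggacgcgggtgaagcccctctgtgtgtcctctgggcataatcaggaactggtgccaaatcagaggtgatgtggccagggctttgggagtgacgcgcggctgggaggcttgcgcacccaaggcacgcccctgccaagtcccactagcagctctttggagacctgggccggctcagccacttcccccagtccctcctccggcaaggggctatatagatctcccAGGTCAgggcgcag
Adipoq (chr16:23146286-23146535, plus strand): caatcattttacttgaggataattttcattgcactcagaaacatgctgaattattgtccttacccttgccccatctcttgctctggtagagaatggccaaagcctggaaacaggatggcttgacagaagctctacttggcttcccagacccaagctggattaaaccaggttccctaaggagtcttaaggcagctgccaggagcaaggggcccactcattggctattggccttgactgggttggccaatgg
Cidec (chr6:113434765-113435014, minus strand): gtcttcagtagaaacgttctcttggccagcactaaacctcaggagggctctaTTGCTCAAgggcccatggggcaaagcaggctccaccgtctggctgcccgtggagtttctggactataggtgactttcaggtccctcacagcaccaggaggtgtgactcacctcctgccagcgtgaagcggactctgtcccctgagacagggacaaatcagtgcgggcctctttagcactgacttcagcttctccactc

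Both strands were searched. The half-site AGGTCA was found in 1 of the 10 windows, that of Ucp1, where it starts at base -14 from the start site, and it occurred in 16.3% of all 32851 promoter windows. TTGCNNAA was found in 2 windows, at base -198 in 1 of the start sites of Cidec and at bases -187 and -58 in Plin1, against 10.8% of all windows. TATAAA was in none of the 10 windows and in 13.6% of all windows, and the DR1 element, a pair of half-sites 1 base apart that PPARγ binds with its partner RXR, was in none of the 10 and in 0.0396% of all. The 6-letter half-site is also contained in every DR1 element. None of the 4 motifs was held by more than 2 of the 10 windows, and sequence outside the windows was not searched.

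Of the members an adipokine gene showed the widest spread. Adipoq (1422651_at, chr16:23146536-23157968), the gene of adiponectin, is expressed in fat cells and was read at 10.34, 11.73, 9.46 and 9.47 in mdx HRTΔIKKβ hearts, against 9.94, 6.58 and 7.63 in mdx IKKβf/f hearts. The highest heart was thus 35.3-fold above the lowest, and the first mdx IKKβf/f heart lay inside the range of the mdx HRTΔIKKβ hearts, so the groups overlapped. The means were 10.25 ± 1.07 in mdx HRTΔIKKβ hearts and 8.05 ± 1.72 in mdx IKKβf/f hearts (SD, n = 4 and 3), a difference of 2.20 ± 0.85 (SE) with an adjusted p of 0.796 in limma. Without the second mdx IKKβf/f heart the difference was 1.46, and without replicate 2 of both groups 0.97. Its SD of 1.71 over the 7 hearts ranked 48 among all probe sets. Retn (1449182_at, chr8:3655770-3659818) encodes resistin, which mouse white fat secretes. It was read at 8.20, 9.15, 7.33 and 7.85 in mdx HRTΔIKKβ hearts, against 7.59, 7.38 and 7.31 in mdx IKKβf/f hearts. Again the second mdx HRTΔIKKβ heart was the highest, and most of the spread lay among the hearts of its group (SD 0.77 in mdx HRTΔIKKβ hearts and 0.15 in mdx IKKβf/f hearts). The difference was 0.71 ± 0.38 (SE, adjusted p = 0.796 in limma), and 0.37 without the second mdx HRTΔIKKβ heart.

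A lipid droplet gene and a lipolysis gene did not overlap between the groups, by narrow gaps. Cidec (1452260_at, chr6:113424634-113435760) encodes the protein that fuses droplets into the single large one of white fat. It was read at 6.55, 8.41, 5.84 and 5.86 in mdx HRTΔIKKβ hearts, against 5.82, 4.78 and 4.99 in mdx IKKβf/f hearts. The groups did not overlap, by a gap of 0.016 between the third mdx HRTΔIKKβ heart and the first mdx IKKβf/f heart, while hearts of the same group differed by more than 1. The Cidec probe set is rather dim, above only 37.8% of all probe sets in mean value. The difference was 1.47 ± 0.62 (SE, adjusted p = 0.796 in limma), and 0.89 without the second mdx HRTΔIKKβ heart. Lipe (1422820_at, chr7:25379527-25398486) encodes hormone-sensitive lipase, which splits diacylglycerol. It was read at 9.21, 9.63, 9.48 and 9.03 in mdx HRTΔIKKβ hearts, against 8.98, 8.31 and 8.64 in mdx IKKβf/f hearts, with a gap of 0.047 between the groups. Lipe thus varied far less than Cidec, by 2.49-fold from lowest to highest heart against 12.4-fold for Cidec. Its difference was 0.69 ± 0.19 (SE, adjusted p = 0.796 in limma). A second probe set of Lipe (1432180_at) was dim, at 5.15 to 5.36 in mdx HRTΔIKKβ hearts and 5.21 to 5.34 in mdx IKKβf/f hearts, and showed neither the spread nor the difference.

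Pck1 (1423439_at, chr2:173153073-173159274) encodes the cytosolic phosphoenolpyruvate carboxykinase, which fat cells use to make glycerol for triglyceride. It was read at 6.71, 8.94, 7.55 and 7.48 in mdx HRTΔIKKβ hearts, against 6.93, 6.12 and 5.72 in mdx IKKβf/f hearts. The groups overlapped because the first mdx HRTΔIKKβ heart, among the highest for Adipoq, was the lowest of its group for Pck1. The difference was 1.41 ± 0.51 (SE, adjusted p = 0.796 in limma). The dimmer probe set 1439617_s_at gave 4.95, 6.15, 5.19 and 5.35 in mdx HRTΔIKKβ hearts, against 4.91, 4.44 and 4.56 in mdx IKKβf/f hearts, and a difference of 0.78 ± 0.27 (SE, adjusted p = 0.796 in limma). Here the groups were apart by 0.041. The third probe set, 1455209_at, lay at 3.56 to 3.61 in mdx HRTΔIKKβ hearts and 3.44 to 3.57 in mdx IKKβf/f hearts, which is near the floor of the array (lowest value 3.12), and varied little.

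Car3 (chr3:14863538-14872381), the carbonic anhydrase that is abundant in fat cells and in slow skeletal muscle, was the member that divided the mdx IKKβf/f hearts most. Its brightest probe set, 1449434_at, was read at 12.50, 13.78, 12.21 and 12.24 in mdx HRTΔIKKβ hearts, against 13.35, 9.41 and 10.90 in mdx IKKβf/f hearts. The SD was 0.74 among mdx HRTΔIKKβ hearts and 1.99 among mdx IKKβf/f hearts, and the first mdx IKKβf/f heart lay above all mdx HRTΔIKKβ hearts but the second. The difference was 1.46 ± 0.86 (SE, adjusted p = 0.798 in limma). It was 2.52 without the first and 0.56 without the second mdx IKKβf/f heart, and 0.19 without replicate 2 of both groups. The probe set 1460256_at gave the same top and bottom heart (10.49, 12.07, 9.84 and 9.91 in mdx HRTΔIKKβ hearts, against 11.18, 7.18 and 8.45 in mdx IKKβf/f hearts). On the other pair of Car3 probe sets the first mdx IKKβf/f heart was the highest of all 7. The probe set 1430584_s_at gave 6.08, 7.50, 5.84 and 5.68 in mdx HRTΔIKKβ hearts, against 7.62, 5.13 and 5.34 in mdx IKKβf/f hearts, and 1453588_at gave 3.98, 4.65, 3.92 and 3.95 in mdx HRTΔIKKβ hearts, against 4.91, 3.50 and 3.54 in mdx IKKβf/f hearts. The same mdx IKKβf/f heart had the highest level of fast skeletal muscle genes (mean centred log2 value 4.43, against -1.50 to 0.86 in the other 6 hearts). The part of skeletal muscle RNA in the Car3 values was not tested.

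Fabp4 (chr3:10204342-10208616), the fatty acid binding protein of fat cells that capillary endothelium also makes, departed from the other members. Its brightest probe set, 1417023_a_at, was read at 14.01, 14.11, 13.90 and 13.58 in mdx HRTΔIKKβ hearts, against 13.88, 13.85 and 13.89 in mdx IKKβf/f hearts. It stood above 99.6% of all probe sets in mean value, where differences can be compressed (the highest value on any array was 15.09), and varied by an SD of only 0.16, and hearts that were far apart for Adipoq were alike for Fabp4. The difference was 0.023 ± 0.12 (SE, adjusted p = 0.977 in limma). Its 4 probe sets did not give the same order of hearts. While 1451263_a_at followed the brightest (12.17 to 12.94 in mdx HRTΔIKKβ hearts, 12.65 to 12.77 in mdx IKKβf/f hearts), the second mdx IKKβf/f heart, the lowest for Adipoq, was the highest on 1424155_at (11.04) and on 1425809_at (10.29). On 1424155_at the mdx HRTΔIKKβ hearts gave 10.33, 10.46, 10.98 and 10.70, against 10.73, 11.04 and 10.68 in mdx IKKβf/f hearts, and the difference was -0.20 ± 0.16 (SE, adjusted p = 0.823 in limma).

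The brown member was high in fewer hearts. Ucp1 (1418197_at, chr8:83290348-83298456), uncoupling protein 1, was read at 5.82, 9.45, 6.74 and 5.65 in mdx HRTΔIKKβ hearts, against 7.11, 5.54 and 5.66 in mdx IKKβf/f hearts. A single heart, the second mdx HRTΔIKKβ heart, stood 13.0-fold above the median of the other 6. The first mdx IKKβf/f heart came next and the third mdx HRTΔIKKβ heart after it, and the other 4 hearts lay between 5.54 and 5.82. In mean value the Ucp1 probe set stood above 47.0% of all probe sets. The difference was 0.81 ± 0.91 (SE, adjusted p = 0.863 in limma), and without the second mdx HRTΔIKKβ heart it was -0.031. The first mdx HRTΔIKKβ heart ranked second for Adipoq, Retn and Cidec, yet was among the 4 hearts with low Ucp1.

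**Figure D1:**
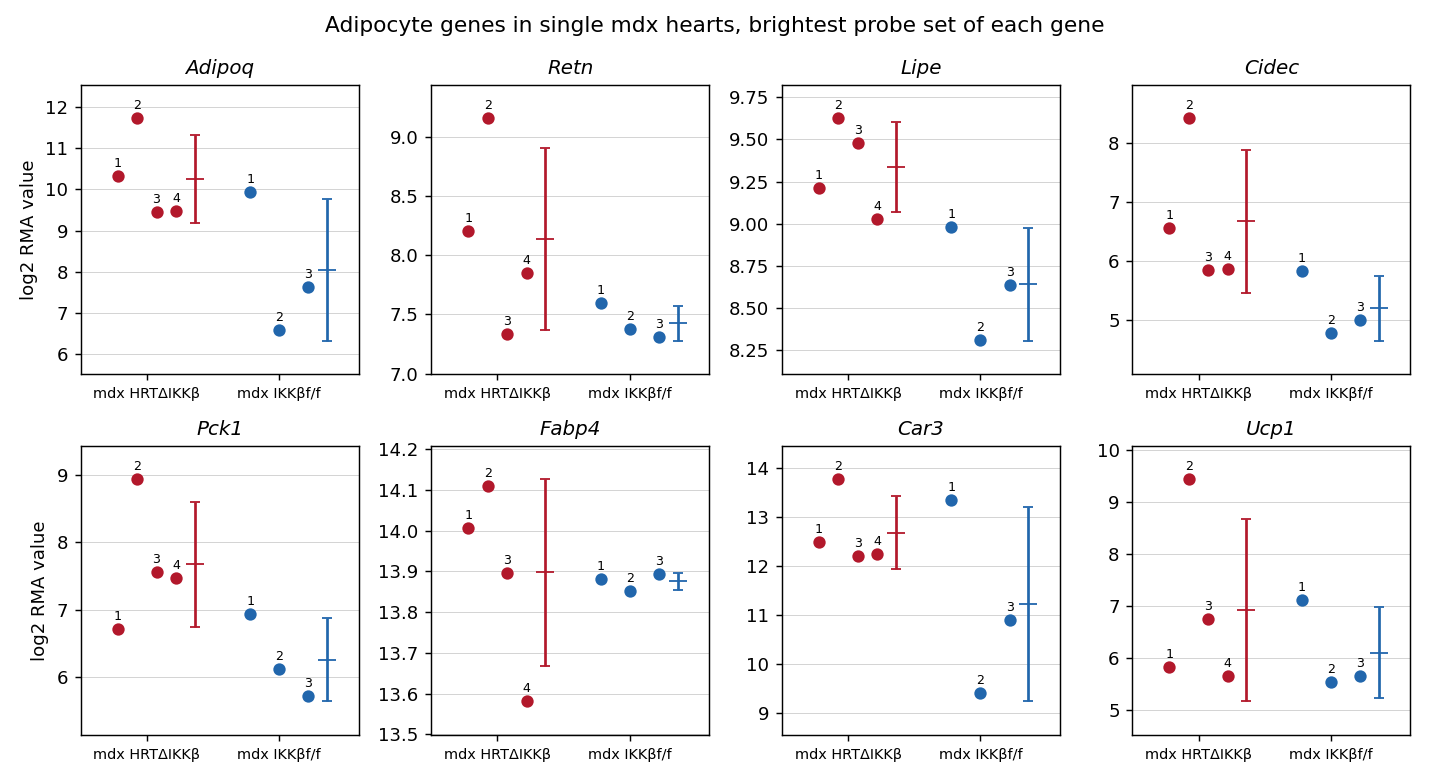
Log2 RMA values (y axis, a scale of its own in each panel) of the brightest probe set of each measured adipocyte gene in 4 mdx HRTΔIKKβ hearts (red) and 3 mdx IKKβf/f hearts (blue). Numbers are replicates and bars are mean ± SD. The second mdx HRTΔIKKβ heart is the highest in all 8 panels, and the first mdx IKKβf/f heart lies within or next to the mdx HRTΔIKKβ range.

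Set side by side, the group comparison did not pass the test for any member. Of the 17 member probe sets 14 were higher and 3, all of Fabp4, were lower in mdx HRTΔIKKβ hearts. At an adjusted p under 0.05 the limma fit called 0 of the 17 (adjusted p from 0.796 to 0.993), and 0 probe sets over the whole array (0%). At an unadjusted p under 0.05 it held 5 of the 17, against 6.07% of all probe sets, and the methods' t-test, which called 0 probe sets after adjustment, held 1. The groups did not overlap for 3 of the 17, against 5.44% of all probe sets in either direction. At least 1.5-fold higher were 9 of the 17, against 0.79% of all probe sets, and 0 were at least 1.5-fold lower. These counts describe genes taken for their spread, and nothing is read from their distance to the shares of the whole array. By brightest probe sets, the 8 genes had a median difference of 1.11 and a median SD over hearts of 1.13, against -0.0056 and 0.11 over all 18193 genes. Leaving out the second mdx HRTΔIKKβ heart gave a median difference of 0.74, and leaving out the second mdx IKKβf/f heart, in which 5 of the 8 genes were lowest, gave 0.62.

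**Figure D2:**
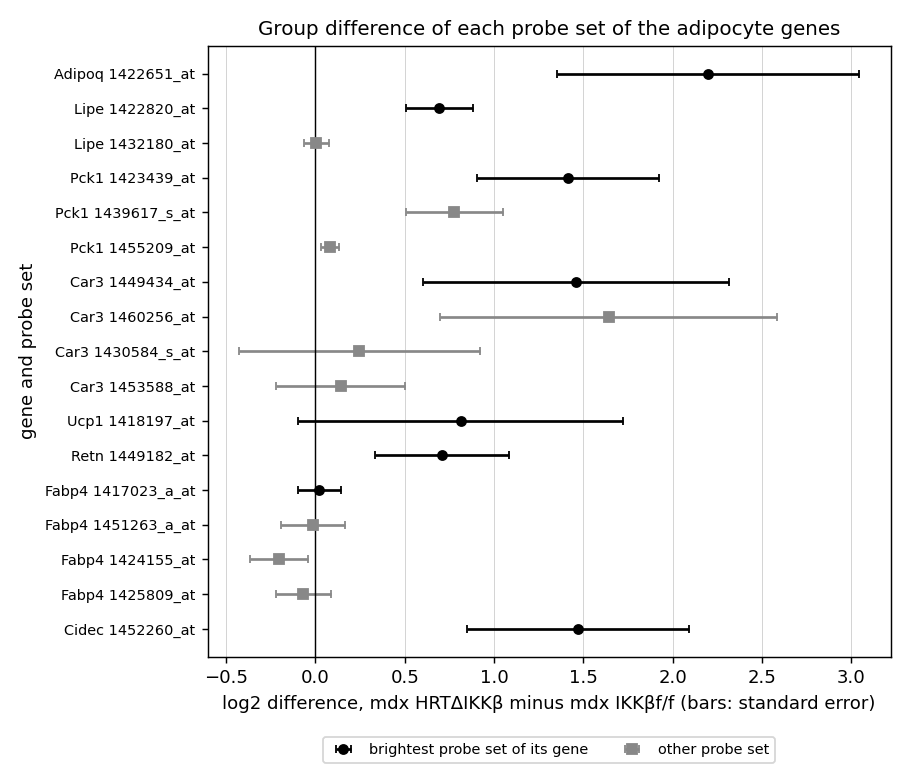
Log2 difference (x axis, mdx HRTΔIKKβ minus mdx IKKβf/f) with its standard error for each of the 17 probe sets (rows) of the adipocyte genes. The widest bars are those of Car3, Ucp1 and Adipoq, and the bars of the 4 Fabp4 probe sets lie near 0.

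Across the hearts the members other than Fabp4 shared much of their order. The adipocyte level, defined for each heart as the mean of the 8 genes' log2 values after each was centred on its own mean over the hearts, was 0.19, 1.67, 0.089 and -0.078 in mdx HRTΔIKKβ hearts, against 0.23, -1.23 and -0.88 in mdx IKKβf/f hearts. At the top stood the second mdx HRTΔIKKβ heart alone, at the bottom the second and the third mdx IKKβf/f hearts, and the other 4 hearts lay between -0.078 and 0.23. They differed by less than the pooled spread between hearts of the same group (SD 0.79). With 1 array per heart the error of a single heart's level was not measured, so their order is not resolved. Each of the 8 genes was highest in the second mdx HRTΔIKKβ heart. The lowest heart was the second mdx IKKβf/f heart for 5 genes, the third for 2 (Pck1 and Retn) and the last mdx HRTΔIKKβ heart, replicate 4, for Fabp4. As a description over 7 hearts that share 1 RNA sample per heart, Pearson's r between pairs of members other than Fabp4 ran from 0.64 to 0.96 (21 pairs, median 0.83), with Adipoq and Car3 at 0.96 and Retn and Cidec at 0.95. Pairs with Fabp4 ran from 0.27 to 0.63. Without the second mdx HRTΔIKKβ heart the 21 pairs ran from -0.17 to 0.95 (6 hearts, median 0.67), with Adipoq and Cidec still at 0.95 and Adipoq and Ucp1 at 0.53. In whole-heart RNA, more fat cells and more RNA of these genes per fat cell cannot be told apart.

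Genes outside the set with the most similar course were named by likeness, that is by Pearson's r with the adipocyte level over the 7 hearts, among 865 genes whose range over the hearts was at least 1 on the log2 scale. Of these, 60 (6.94%) had an r over 0.9 and 0 had one under -0.9. The 15 most alike, in order, were Cytip (r = 0.98), Hp, Prkar2b, Csf2rb, Slc25a1, Ifi27l2a, Bid, Elovl6, Cebpa, Myo1g, Pon1, Rac2, Cd52, Acp5 and Hvcn1 (r = 0.95). Several are known from fat or liver. Hp, the haemoglobin scavenger haptoglobin that mouse fat also makes, was read at 9.10, 11.29, 8.11 and 8.02 in mdx HRTΔIKKβ hearts, against 9.04, 6.38 and 7.34 in mdx IKKβf/f hearts. Prkar2b, the regulatory subunit of protein kinase A that predominates in fat cells, was read at 6.34, 7.99, 6.56 and 6.39 in mdx HRTΔIKKβ hearts, against 6.92, 4.64 and 5.41 in mdx IKKβf/f hearts. Both repeat the order seen for Adipoq at its ends, with the second mdx HRTΔIKKβ heart highest and the second mdx IKKβf/f heart lowest. Slc25a1 (the mitochondrial citrate carrier), Elovl6 (a fatty acid elongase), Cebpa (C/EBPα) and Pon1 (paraoxonase) belong to lipid synthesis or its control, or to lipoproteins. Others are genes of leukocytes, among them Cytip, Csf2rb (a cytokine receptor subunit), Myo1g, Rac2 (a GTPase of blood cells) and Cd52. Cytip was read at 7.34, 8.35, 7.16 and 7.25 in mdx HRTΔIKKβ hearts, against 7.16, 6.32 and 6.24 in mdx IKKβf/f hearts. By Pearson's r over the 7 hearts this leukocyte gene tracked the adipocyte level as closely as any lipid gene. By ranks (Spearman's rho) Cytip stood at 0.76, below Hp at 0.96 and Prkar2b at 0.89, and close to Cebpa at 0.75. For none of the 15 did limma's adjusted p fall under 0.796. Over the other 6 hearts, without the second mdx HRTΔIKKβ heart, their r ran from 0.86 to 0.97.

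**Figure D3:**
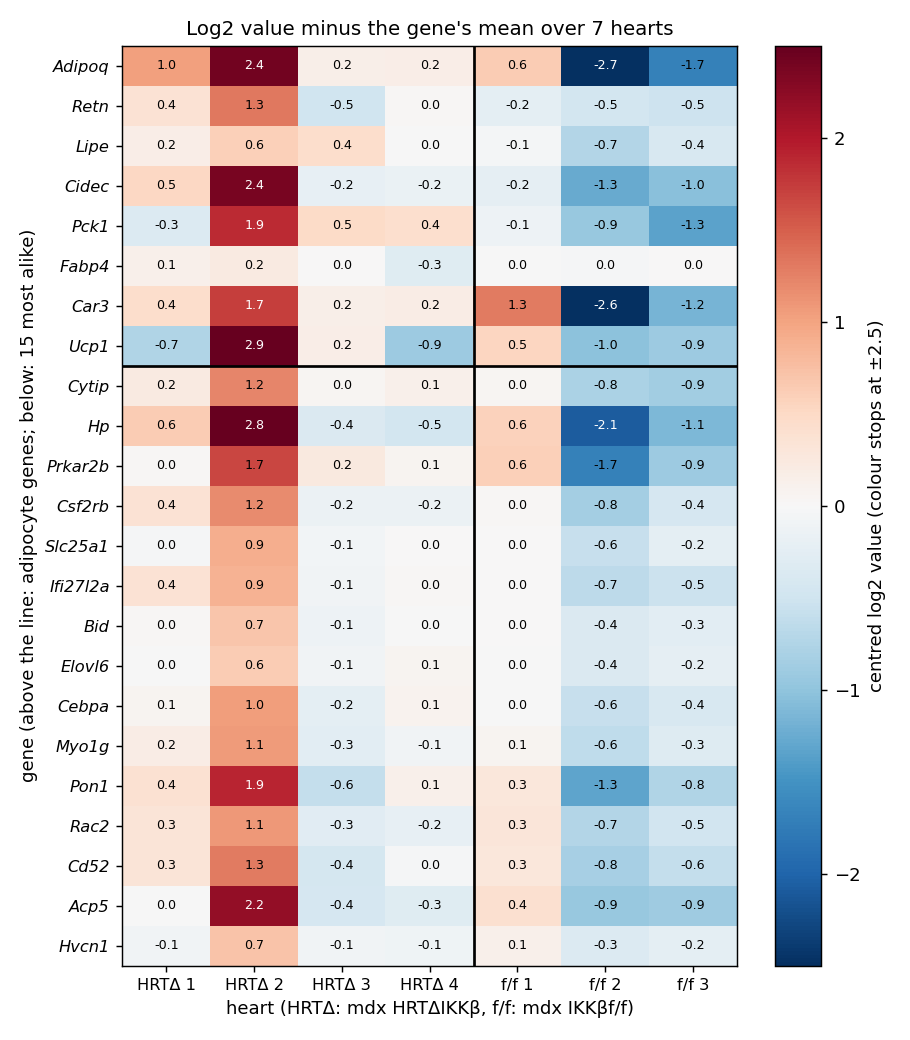
Log2 value minus the gene's mean over 7 hearts (colour and number) for the 8 measured adipocyte genes (above the line) and the 15 genes most alike in course (below), in 4 mdx HRTΔIKKβ and 3 mdx IKKβf/f hearts (columns). The column of the second mdx HRTΔIKKβ heart is positive in every row, and that of the second mdx IKKβf/f heart is below 0 in every row.

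The wider fat cell programme was described with 8 lists written from textbook knowledge. Their counts and medians include the members, which were chosen for their spread. The members on the lists were Adipoq and Retn (adipokines), Cidec (lipid droplet), Lipe (lipolysis), Pck1 (synthesis), Fabp4 (binding and uptake) and Ucp1 (thermogenic). Adipoq, Cidec, Lipe and Pck1 are among the upward genes counted below at an unadjusted p under 0.05 in limma. The median of the binding and uptake list is the value of Fabp4 itself. In each list 0 genes passed an adjusted p of 0.05 in limma. An unadjusted p under 0.05 was reached by 6.20% of all 18193 genes, and several of the counts below lie near that share. Of the adipokines and their receptors 16 of 18 were measured, 9 higher and 7 lower in mdx HRTΔIKKβ hearts, and an unadjusted p under 0.05 was reached by 3 upward and 0 downward (median difference 0.11, but 0.010 without the second mdx HRTΔIKKβ heart and 0.021 without the second mdx IKKβf/f heart). Lep, the gene of leptin and a defining product of white fat, was dim in every heart, at 4.69 to 5.32 in mdx HRTΔIKKβ hearts and 4.62 to 4.87 in mdx IKKβf/f hearts. Rbp4, the retinol carrier, was read at 6.58, 7.83, 5.76 and 6.75 in mdx HRTΔIKKβ hearts, against 6.58, 5.80 and 6.90 in mdx IKKβf/f hearts. Rarres2 (chemerin) lay at 9.91 to 10.56 in mdx HRTΔIKKβ hearts and 9.83 to 10.02 in mdx IKKβf/f hearts. Nampt, which makes NAD and is not restricted to fat, ran the other way, with 11.06, 10.85, 11.80 and 12.06 in mdx HRTΔIKKβ hearts, against 11.77 to 12 in mdx IKKβf/f hearts. Among the receptors Adipor2 did not overlap between groups, with its lowest mdx HRTΔIKKβ heart at 10.61 and its highest mdx IKKβf/f heart at 10.48 (difference 0.30 ± 0.093, SE, adjusted p = 0.796 in limma), while Adipor1 differed by -0.0078 ± 0.056 (SE). The adipokine gene Apln was lower without overlap, at 8.51 to 8.61 in mdx HRTΔIKKβ hearts and 8.62 to 9.11 in mdx IKKβf/f hearts (difference -0.23 ± 0.11, SE, adjusted p = 0.796 in limma). Over all 18193 genes, 5.67% did not overlap in either direction.

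Of the lipid droplet proteins 12 of 13 were measured, 9 higher and 3 lower, and an unadjusted p under 0.05 was reached by 2 of those higher (median difference 0.20). Adig, adipogenin, was read at 6.81, 8.07, 6.81 and 6.91 in mdx HRTΔIKKβ hearts, against 6.81, 6.52 and 6.53 in mdx IKKβf/f hearts, a course like that of Cidec on a smaller scale. Droplet genes that heart muscle also uses had another order of hearts. Plin5, the perilipin of oxidative tissue, was read at 12.44, 12.76, 12.83 and 11.996 in mdx HRTΔIKKβ hearts, against 12.11, 12.48 and 12.10 in mdx IKKβf/f hearts, and Plin4 was highest in the third mdx HRTΔIKKβ heart (12.10). Fitm2, a protein of droplet budding, did not overlap between groups (11.74 to 11.86 in mdx HRTΔIKKβ hearts and 11.47 to 11.63 in mdx IKKβf/f hearts, difference 0.23 ± 0.060, SE, adjusted p = 0.790 in limma). Of the lipolysis genes 10 of 11 were measured, 8 higher and 2 lower, and an unadjusted p under 0.05 was reached by 1 in each direction (median difference 0.14, but 0.076 without the second mdx HRTΔIKKβ heart, 0.20 without the third and 0.051 with dim probe sets removed). Pnpla2, the lipase that starts triglyceride breakdown, differed by 0.051 ± 0.066 (SE), and Abhd5, its coactivator, lay lower without overlap, at 10.02 to 10.06 in mdx HRTΔIKKβ hearts and 10.14 to 10.22 in mdx IKKβf/f hearts (difference -0.14 ± 0.047, SE, adjusted p = 0.796 in limma). In this list of 10 measured genes the groups did not overlap for 2 alone, the member Lipe higher and Abhd5 lower, against 5.67% of all genes.

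Some lipogenic enzymes also peaked in the second mdx HRTΔIKKβ heart. Of the genes of glycerolipid and fatty acid synthesis 22 of 22 were measured, 15 higher and 7 lower, and an unadjusted p under 0.05 was reached by 2 upward and 0 downward (median difference 0.18, but 0.063 without the second mdx HRTΔIKKβ heart and 0.12 without the second mdx IKKβf/f heart). Scd1, the desaturase that makes oleate, was read at 10.10, 12.35, 9.78 and 11.49 in mdx HRTΔIKKβ hearts, against 11.18, 9.43 and 9.43 in mdx IKKβf/f hearts. Fasn, fatty acid synthase, was read at 8.997, 10.46, 8.68 and 9.79 in mdx HRTΔIKKβ hearts, against 8.98, 8.23 and 8.69 in mdx IKKβf/f hearts. For both, mdx HRTΔIKKβ replicate 4 came second, although its adipocyte level was among the middle 4. Acly, which supplies cytosolic acetyl-CoA, lay at 10.30 to 10.70 in mdx HRTΔIKKβ hearts and 10.11 to 10.31 in mdx IKKβf/f hearts. Gpam, the first enzyme of glycerolipid synthesis, and Dgat2, the last, were lowest in the second mdx HRTΔIKKβ heart (11.76 and 12.10) and differed between groups by -0.17 ± 0.082 and -0.12 ± 0.093 (SE). Of the fatty acid binding and uptake genes 7 of 8 were measured, 5 higher and 2 lower, and an unadjusted p under 0.05 was reached by 1 of those higher (median difference 0.023, with either sign when single hearts were left out). Lpl, the lipoprotein lipase that heart muscle makes in quantity, lay at 14.77 to 14.84 in mdx HRTΔIKKβ hearts and 14.79 to 14.83 in mdx IKKβf/f hearts, and Cd36 and Fabp3, carriers of fatty acid in heart muscle, differed by 0.024 ± 0.065 and 0.0025 ± 0.050 (SE). Fabp5, a relative of Fabp4, differed by 0.35 ± 0.12 (SE, adjusted p = 0.796 in limma).

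Of the adipocyte transcription factors 11 of 11 were measured, 10 higher and 1 lower, and an unadjusted p under 0.05 was reached by 3 of those higher (median difference 0.23, but 0.090 without the third mdx HRTΔIKKβ heart). Cebpa was read at 8.86, 9.83, 8.55 and 8.88 in mdx HRTΔIKKβ hearts, against 8.79, 8.21 and 8.39 in mdx IKKβf/f hearts. Pparg, the receptor that commands fat cell formation, varied little, at 7.95 to 8.32 in mdx HRTΔIKKβ hearts and 7.84 to 8.05 in mdx IKKβf/f hearts. Cebpb, Cebpd and Klf15, which glucocorticoids and stress also induce, had another order of hearts. Cebpd was read at 10.29, 10.07, 11.10 and 11.33 in mdx HRTΔIKKβ hearts, against 9.58, 10.13 and 9.999 in mdx IKKβf/f hearts (difference 0.80 ± 0.32, SE, adjusted p = 0.796 in limma). Here mdx HRTΔIKKβ replicates 3 and 4 were high and the second, the top heart for the brightest probe set of every measured member, was not. Of the preadipocyte genes 8 of 9 were measured, 6 higher and 2 lower, and an unadjusted p under 0.05 was reached by 1 of those higher (median difference 0.10, but 0.026 without the second mdx IKKβf/f heart). Pdgfra, a receptor of fibroblasts and fat cell progenitors, lay at 10.07 to 10.32 in mdx HRTΔIKKβ hearts and 10.03 to 10.10 in mdx IKKβf/f hearts, and Dlk1, which marks preadipocytes, differed by 0.055 ± 0.074 (SE). Cd24a, a surface protein of progenitors, epithelia and leukocytes, was read at 9.05, 10.92, 8.08 and 8.80 in mdx HRTΔIKKβ hearts, against 10.78, 7.42 and 7.51 in mdx IKKβf/f hearts. Its top heart was that of the adipocyte level, with the first mdx IKKβf/f heart close to it. Dpp4, a peptidase of progenitors and of some leukocytes, was read at 6.97, 7.18, 6.56 and 7.12 in mdx HRTΔIKKβ hearts, against 6.64, 6.08 and 6.22 in mdx IKKβf/f hearts (difference 0.65 ± 0.18, SE, adjusted p = 0.796 in limma).

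The thermogenic list had a median difference near 0. Of its genes 18 of 20 were measured, 8 higher and 10 lower, and an unadjusted p under 0.05 was reached by 0 upward and 1 downward (median difference -0.033). Zic1, a developmental marker of brown fat, lay at 3.79 to 3.88 in mdx HRTΔIKKβ hearts and 3.88 to 4.23 in mdx IKKβf/f hearts, near the floor of the array. So did Lhx8, at 3.88 to 4.04 in mdx HRTΔIKKβ hearts and 3.93 to 4.07 in mdx IKKβf/f hearts. Elovl3, a cold-induced elongase of brown fat, lay at 5.77 to 5.92 in mdx HRTΔIKKβ hearts and 5.84 to 5.89 in mdx IKKβf/f hearts. These 3 genes were not highest in the second mdx HRTΔIKKβ heart. Dio2, the deiodinase that activates thyroid hormone in brown fat, was read at 7.00, 7.57, 5.64 and 6.68 in mdx HRTΔIKKβ hearts, against 6.70, 6.12 and 6.89 in mdx IKKβf/f hearts. Cidea, a relative of Cidec that brown fat and heart express, was read at 10.63, 11.01, 10.54 and 10.15 in mdx HRTΔIKKβ hearts, against 10.16, 10.38 and 10.26 in mdx IKKβf/f hearts. Both were highest in the second mdx HRTΔIKKβ heart, by less than 1 on the log2 scale. Cox7a1 and Cox8b, subunits of cytochrome oxidase in heart and brown fat, were bright, where differences can be compressed, with differences of -0.039 ± 0.057 and -0.066 ± 0.048 (SE). Of the 10 brown adipocyte markers 5 (Ucp1, Cidea, Dio2, Otop1 and Kcnk3) were highest in the second mdx HRTΔIKKβ heart. Kcnk3 was read there at 11.28, against 10.95 to 11.19 in the other 6. The mean centred log2 value of all 10 markers was 0.48 in that heart, against -0.16 to 0.0084 in the other 6. That mean includes the member Ucp1, chosen for its spread, with a centred value of 2.88 in that heart. Ucp1 had the widest range among the 10, and Zic1, Lhx8 and Otop1 were too dim to be read either way.

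**Figure D4:**
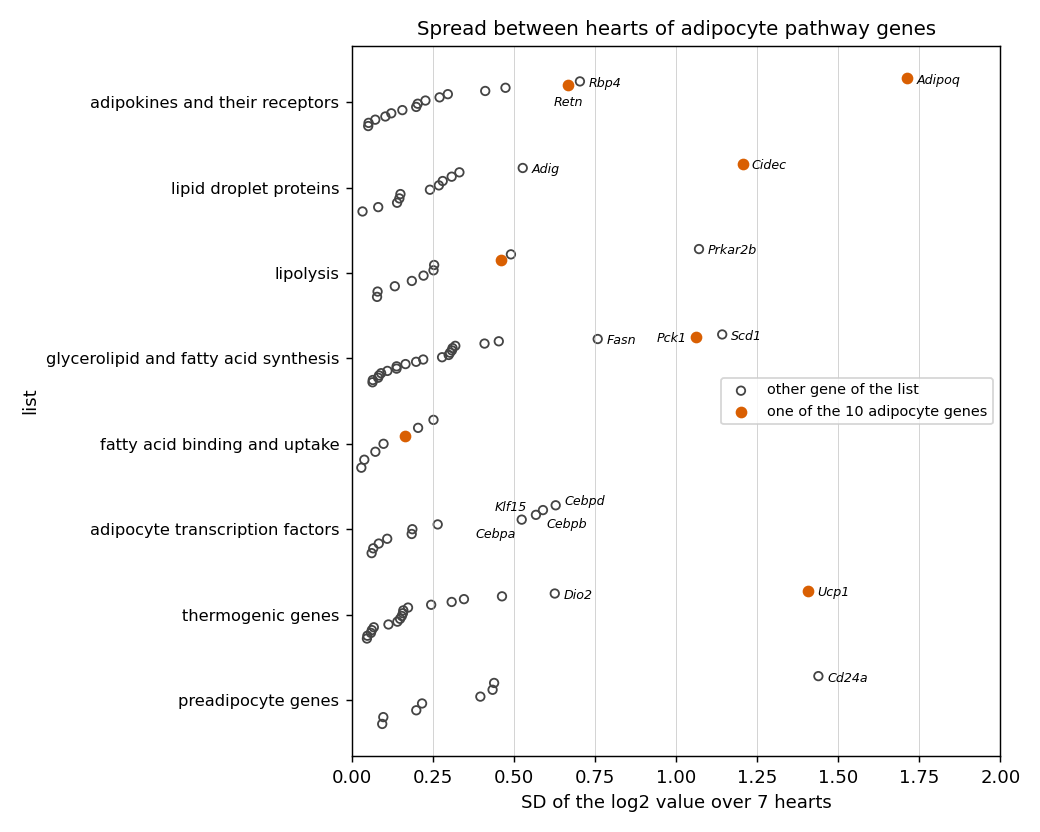
SD of the log2 value over the 7 hearts (x axis) of each measured gene (point) in 8 lists of fat cell biology (rows). Most genes lie under 0.5, and Prkar2b, Scd1 and Cd24a are the genes outside the set that vary by over 1.

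Marker lists of other cell types also differed between single hearts, and their levels are set beside the members as mean centred log2 values. The 9 measured white adipocyte markers of 12, of which 5 are members, gave 0.22, 0.95, 0.027 and -0.0049 in mdx HRTΔIKKβ hearts, against -0.032, -0.64 and -0.52 in mdx IKKβf/f hearts. That second mdx HRTΔIKKβ heart was the highest for every measured member by its brightest probe set. It was also the top heart for airway markers (3.13, against -1.53 to 1.61 in the other 6 hearts), for B cell and plasma cell markers (2.19, against -1.45 to 0.71) and for mesothelial markers (1.08, against -0.55 to 0.35). The source of the RNA of these markers was not tested. Sftpc, the surfactant protein of lung alveoli, was read at 6.66, 11.83, 6.25 and 6.25 in mdx HRTΔIKKβ hearts, against 6.10, 6.14 and 5.82 in mdx IKKβf/f hearts. Sftpa1, Sftpb and Sftpd were also highest in the second mdx HRTΔIKKβ heart. Airway markers were high in mdx HRTΔIKKβ replicate 4 too, at 1.61 beside an adipocyte level of -0.078. Bpifa1 was read at 12.13 in the second mdx HRTΔIKKβ heart and 12.83 in replicate 4. In the same 2 hearts Scgb1a1 was read at 13.27 and 12.54, and Scgb3a2 at 11.24 and 11.20. The second mdx IKKβf/f heart, the lowest in adipocyte level, was the lowest for atrial markers (-1.81, against -0.36 to 1.14). The first mdx HRTΔIKKβ heart was the top heart for thymocyte markers (1.51, against -0.30 to -0.19), and the first mdx IKKβf/f heart for fast skeletal muscle markers.

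The cardiomyocyte, endothelial, macrophage and hepatocyte lists differed less between hearts than the airway, atrial or thymocyte lists. Cardiomyocyte markers lay between -0.020 and 0.0086 in mdx HRTΔIKKβ hearts and between -0.017 and 0.035 in mdx IKKβf/f hearts, but most of these genes, with Myh6 at 14.84, sit close to the highest value on the arrays (15.09), where a change would be compressed. Endothelial markers lay between -0.14 and 0.19 in mdx HRTΔIKKβ hearts and between -0.097 and 0.084 in mdx IKKβf/f hearts. Macrophage markers were 0.35, 0.13, -0.14 and 0.11 in mdx HRTΔIKKβ hearts, against -0.050, -0.35 and -0.045 in mdx IKKβf/f hearts. Erythroid markers, of which 3 of 6 were measured, were highest in the first mdx IKKβf/f heart (1.07) and next in the second mdx HRTΔIKKβ heart (0.87). Of the mesothelial markers 7 of 7 were higher in mdx HRTΔIKKβ hearts, 6 of them without overlap between groups (3.05% of all genes were higher without overlap), with mean values of 0.35, 1.08, -0.15 and 0.29 in mdx HRTΔIKKβ hearts, against -0.52, -0.55 and -0.50 in mdx IKKβf/f hearts. B cell and plasma cell markers were -0.26, 2.19, 0.71 and 0.24 in mdx HRTΔIKKβ hearts, against -0.25, -1.19 and -1.45 in mdx IKKβf/f hearts, and hepatocyte markers lay between -0.12 and 0.26 in all hearts. Whether other tissue was taken along with the heart, and what part it had in the differences of the adipocyte genes, was not tested.

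**Figure D5:**
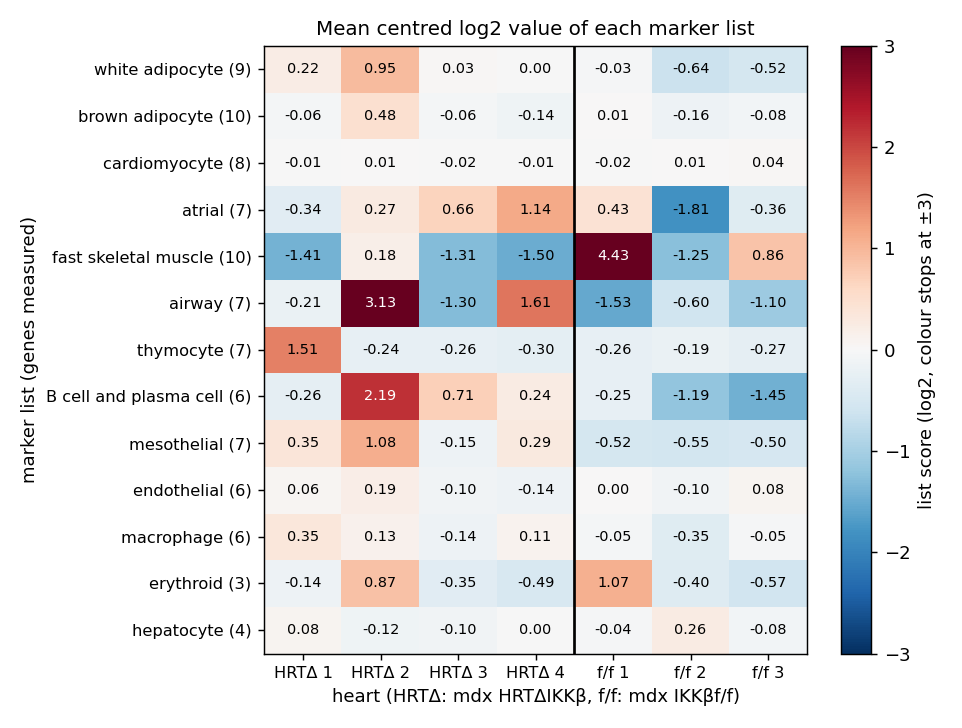
Mean centred log2 value (colour and number) of 13 marker lists (rows, with the number of genes measured) in 4 mdx HRTΔIKKβ and 3 mdx IKKβf/f hearts (columns). White adipocyte, airway, B cell and mesothelial lists are highest in the second mdx HRTΔIKKβ heart, atrial markers are lowest in the second mdx IKKβf/f heart, and cardiomyocyte markers, close to the top of the scale, vary least.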

How the data were processed

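Whole-heart RNA of 7 mdx mice was labelled with biotin (mdx HRTΔIKKβ, n = 4, and mdx IKKβf/f, n = 3) and measured on Affymetrix mouse genome arrays, 1 heart per array. The deposited values are log2 RMA values, for which the authors name Partek (with background correction and quantile normalization) and, separately, Expression Console. Neither the version nor which of these made the deposited table is stated. Quantile normalization removes any shift in total RNA, and RMA compresses differences of dim probe sets. Depth does not apply to arrays, and their number limits the precision. The study calls its samples biological replicates.

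Groups were compared with limma 3.58.1 (lmFit and eBayes, two-sided, R 4.3.3) over all 45037 probe sets without a filter, with Benjamini-Hochberg adjustment. Descriptions were computed in Python 3.11.15. Genes were named through the platform annotation (34945 probe sets with 1 gene, 932 with several and 9160 with none, of which the last 2 kinds were left unnamed), and positions and promoters come from RefSeq tables (GRCm38.p6). A gene is represented by its probe set with the highest mean. On simulated data with 50 changed probe sets per fold among 45037, 58% of 1.5-fold, 80% of 2-fold, 94% of 4-fold and 100% of 8-fold changes were recovered and 9 unchanged probe sets were called. The changed probe sets were drawn at random, each with its own spread, so recovery was not measured for probe sets as variable as the members.

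The members and the lists were chosen with earlier results of these data known. Named were all members, up to 4 genes with the largest SD and up to 3 with the smallest unadjusted p of each list, any other gene of those lists, and the 15 genes most alike. The airway markers named, Cyp2e1, Cdo1, Apoc1, Igha and Iglv1 are outside that rule and were picked once their values were known. Alternatives were other scalings, filters, variance models, array weights, the methods' t-test, the replicate number as a block, the mean of a gene's probe sets, another fold and leaving out each heart.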

Additional observations from a re-analysis of the deposited data

Results flagged for a closer look

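Among the 4 mdx HRTΔIKKβ hearts, 1 heart stood far from the other 3 in 12 of 81 quantities examined, by the gap to the nearest heart as a share of the whole range (Dixon's test at its limit for 4 samples). Chance would give about 1 in 20 such groups among quantities picked without regard to their values, which these were not. The members were chosen for their spread between hearts, Cytip, Acp5, Hvcn1, Prkar2b and Slc25a1 for following the adipocyte level, and other genes for a large SD, and all share the same RNA, so the count of 12 is a description and is not set against chance. The second mdx HRTΔIKKβ heart was the high one for the adipocyte level (0.844), the dim Car3 probe set 1453588_at (0.917), Adig (0.916), Prkar2b (0.868), Slc25a1 (0.922), Cytip (0.843), Acp5 (0.844) and Hvcn1 (0.972), and for the marker lists of brown adipocytes (0.872) and fast skeletal muscle (0.884). Acp5, a phosphatase of osteoclasts and macrophages, was read at 6.79, 8.995, 6.38 and 6.50 in mdx HRTΔIKKβ hearts, against 7.20, 5.86 and 5.92 in mdx IKKβf/f hearts. Hvcn1, a proton channel of B cells and phagocytes, was read at 6.76, 7.57, 6.77 and 6.74 in mdx HRTΔIKKβ hearts, against 6.98, 6.50 and 6.60 in mdx IKKβf/f hearts. Of the brown adipocyte list, Ucp1 carried most of the gap, at 9.45 in that heart and 5.65 to 6.74 in the other 3. The first mdx HRTΔIKKβ heart was the high one for the thymocyte markers (0.966) and for Thy1 (0.952), a surface protein of thymocytes and of stromal progenitors, read at 8.74, 7.63, 7.65 and 7.68 in mdx HRTΔIKKβ hearts, against 7.55, 7.44 and 7.75 in mdx IKKβf/f hearts. The mdx IKKβf/f group, with 3 hearts, was not examined in this way.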

How the results depend on the processing

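Under the other scalings, filters, variance models and tests the median difference of the measured members kept its sign, and 0 member probe sets passed an adjusted p of 0.05 under any alternative. With dim probe sets removed, Cidec and Ucp1 dropped out of that median. Leaving out 1 heart at a time, the median difference ran from 0.62 to 1.53 and the probe sets called over the whole array from 0 to 1 (1 without the first mdx HRTΔIKKβ heart). Ucp1 changed sign without the second mdx HRTΔIKKβ heart (-0.0314, in a range up to 1.31 without single hearts) and without replicate 2 of both groups (-0.312, an alternative chosen after seeing the data). Fabp4, at 0.0226, changed sign with array weights (-0.0524), as the mean of its 4 probe sets (-0.0652), without replicate 2 of both groups (-0.0598) and without the first or the second mdx HRTΔIKKβ heart (-0.0134 and -0.0480, in a range up to 0.128). At 2-fold instead of 1.5-fold, 5 instead of 9 member probe sets were higher. Without the second mdx HRTΔIKKβ heart, also chosen after seeing the data, the SD over hearts was 0.66 for Ucp1 (1.41 with it), 0.65 for Cidec (1.21) and 0.36 for Retn (0.67). As the mean of all its probe sets, the difference was 0.349 for Lipe (0.693 by the brightest), 0.758 for Pck1 (1.41) and 0.872 for Car3 (1.46). The causes of these changes were not tested. With the replicate number as a block, the median difference was 1.36 and 0 probe sets were called. Deviations of same-numbered hearts from their group means correlated at -0.0751, -0.377 and -0.0362, so no pairing by number was seen. Deviations within such small groups depend on each other, and these values cannot exclude a pairing. With 4 against 3 arrays, differences of the most variable members carried standard errors of up to 0.94, so that differences of this size could not be resolved from spread between hearts.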

Other observations

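Further down the ranking by likeness to the adipocyte level stood genes of liver and fat and genes of plasma cells, which were named after their values were seen. Cyp2e1, a cytochrome P450 of liver that fat also expresses, was read at 11.10, 12.25, 9.35 and 9.68 in mdx HRTΔIKKβ hearts, against 10.22, 7.55 and 8.72 in mdx IKKβf/f hearts, and thus spanned 26.0-fold between single hearts. Cdo1, cysteine dioxygenase, was read at 9.08, 10.45, 8.23 and 8.53 in mdx HRTΔIKKβ hearts, against 8.61, 6.99 and 8.22 in mdx IKKβf/f hearts. Apoc1, an apolipoprotein, was read at 6.46, 7.96, 6.45 and 6.66 in mdx HRTΔIKKβ hearts, against 6.66, 6.09 and 6.15 in mdx IKKβf/f hearts. All 3 were highest in the second mdx HRTΔIKKβ heart and lowest in the second mdx IKKβf/f heart, as Adipoq was. The immunoglobulin genes Igha and Iglv1 shared that top heart. Igha was read at 9.08, 11.42, 9.16 and 9.80 in mdx HRTΔIKKβ hearts, against 9.97, 7.95 and 7.47 in mdx IKKβf/f hearts, and Iglv1 at 7.35, 10.29, 8.91 and 7.58, against 7.37, 5.34 and 5.26. For both, the third mdx IKKβf/f heart was the lowest.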
